A study of Mus musculus with 9 samples.

Results

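Creatine kinases and adenylate kinases move high-energy phosphate between the mitochondria and the sites of ATP use, and 8 genes of this system were examined in mouse hearts. They were taken by gene name: Ckm, Ckmt2, Ckb and Ckmt1 for the 4 creatine kinases, Slc6a8 for the creatine transporter, and Ak1, Ak3 and Ak4 for 3 adenylate kinases. They are 8 of 41710 gene names in the deposited tables, and all 8 were among the 15504 genes that passed the filter on low counts. No measured value entered the choice, but the genes were picked with earlier results of these data known.

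The study sequenced RNA of whole hearts from 8-month-old males, all of FVB/N background. Tg-RKIP mice carry an RKIP transgene driven in heart muscle cells by the alpha-MHC promoter, Tg-GRK2 mice carry a GRK2 transgene whose promoter is not given in the sources used here, and non-transgenic FVB/N mice served as controls. Each group held n = 3 libraries, each labelled as a separate heart, and both transgenic groups were compared with the same 3 controls. Levels are given in TPM, reads per transcript length rescaled to a fixed total per library, and fold changes were estimated from read counts with TMM normalisation, which scales libraries on the premise that most genes do not move.

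Creatine kinase transfers a phosphate between ATP and creatine. In heart muscle the mitochondrial isozyme forms phosphocreatine where ATP is made, and the cytosolic isozyme remakes ATP beside myosin and the calcium pumps. Adenylate kinases exchange phosphate among AMP, ADP and ATP, except that the mitochondrial matrix enzyme encoded by Ak3 uses GTP in place of ATP. A partial return from the adult muscle creatine kinase to the brain type is a textbook feature of the stressed and failing heart.

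The libraries held 25458108 to 33447654 reads. Pebp1, the gene of RKIP, stood at 16198 ± 208 TPM in Tg-RKIP (SD, n = 3), 320.4 ± 5.60 in Tg-GRK2 and 325 ± 4.54 in FVB. In Tg-GRK2 the targeted Grk2 stood at 27.3 ± 2.90 TPM beside 27.1 ± 1.05 in FVB, so it was not higher there and every direction given for that group rests on its label. The library labelled Tg-GRK2 replicate 1 stood apart, with 1.31% of its reads on the ribosomal RNA gene Rn18s against 0.168% to 0.270% in the other 8 libraries. Mitochondrially encoded genes took 11.7% ± 0.156 of the reads in Tg-RKIP, 22.6% ± 0.299 in Tg-GRK2 and 23.1% ± 0.158 in FVB. Scaled by library size alone, the median gene had a log2 fold change of 0.38 in Tg-RKIP against FVB, and after TMM 0.01, so the changes given here are relative to that median.

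The promoters of the 4 creatine kinase genes are shown because Tg-RKIP held more of the RNA of 2 of them and less of the other 2. Each run is the 250 bases before the transcription start, 5′ to 3′ on the gene's strand, from RefSeq on GRCm38.p6, and capitals mark matches on either strand to the 5 motifs named after the sequences.
Ckb, chr12:111672339-111672588, minus strand: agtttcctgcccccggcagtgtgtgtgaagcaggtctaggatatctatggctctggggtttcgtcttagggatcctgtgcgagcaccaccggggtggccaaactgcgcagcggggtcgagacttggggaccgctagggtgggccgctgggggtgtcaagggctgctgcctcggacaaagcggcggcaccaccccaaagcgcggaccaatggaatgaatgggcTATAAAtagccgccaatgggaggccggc
Ckmt1, chr2:121357526-121357775, plus strand, the upstream one of its 2 starts: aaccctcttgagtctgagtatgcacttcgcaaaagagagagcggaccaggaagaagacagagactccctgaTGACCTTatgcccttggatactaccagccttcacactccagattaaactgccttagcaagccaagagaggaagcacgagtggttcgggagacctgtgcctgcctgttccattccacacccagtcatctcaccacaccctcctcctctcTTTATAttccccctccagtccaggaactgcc
Ckm, chr7:19410844-19411093, plus strand: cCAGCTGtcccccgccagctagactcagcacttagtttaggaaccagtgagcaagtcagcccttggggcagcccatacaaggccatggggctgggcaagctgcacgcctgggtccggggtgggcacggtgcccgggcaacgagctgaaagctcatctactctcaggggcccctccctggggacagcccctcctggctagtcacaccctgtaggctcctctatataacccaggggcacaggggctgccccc
Ckmt2, chr13:91876886-91877135, minus strand: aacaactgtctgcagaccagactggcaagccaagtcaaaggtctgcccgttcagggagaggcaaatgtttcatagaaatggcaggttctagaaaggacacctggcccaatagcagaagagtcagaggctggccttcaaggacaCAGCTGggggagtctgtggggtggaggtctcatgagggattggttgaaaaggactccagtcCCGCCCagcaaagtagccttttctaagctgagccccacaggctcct

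TATAAA, the letters of a TATA box, lay 28 bases before the start of Ckb and, on the opposite strand, 31 bases before that of Ckmt1. CAGCTG, a form of the E-box read by muscle bHLH factors, lay 249 bases before the start of Ckm and 107 bases before that of Ckmt2. These motifs occurred in 12.4% and 13.0% of 32817 windows of this length. Ckmt1 also held AAGGTCA, the letters of an estrogen-related receptor site, on the opposite strand 179 bases before its start, as 4.08% of windows did, and Ckmt2 held GGGCGG, the letters of a GC box, on the opposite strand 46 bases before its start, as 32.7% did. ACGTG, the core of another E-box form, was in none of the 4 windows and in 16.6% of all windows. CAGCTG reads the same on both strands, and no 2 matches overlapped in these 4 windows. A match describes the letters only, and the search took exact strings. The Ckm window held the related letters tatataa close to the Ckm start, which a search for TATAAA does not count. How many of all windows held that form was not counted. Of the 8 genes 7 had a RefSeq window, and Slc6a8 did not.

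In Tg-RKIP the creatine kinase genes split by isozyme. The brain-type Ckb rose 2.24-fold and the ubiquitous mitochondrial Ckmt1 rose 10.1-fold, whereas the muscle-type Ckm fell to 0.674 and the sarcomeric mitochondrial Ckmt2 to 0.583 of the FVB value. Among the adenylate kinases the matrix enzymes Ak3 and Ak4 fell to 0.676 and 0.714, and the value of cytosolic Ak1 was -0.05 on the log2 scale, which turned to 0.33 with library size only. The size of these changes depended on the scale, counts after TMM or TPM. The ratios of mean TPM to FVB were 3.00 for Ckb, 15.2 for Ckmt1, 0.870 for Ckm and 0.779 for Ckmt2. They were 0.908 for Ak3 and 0.951 for Ak4, which overlapped FVB in TPM. In Tg-GRK2 the largest change that passed the test was a 1.35-fold rise of Ak4, summed over its transcripts.

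**Figure D1:**
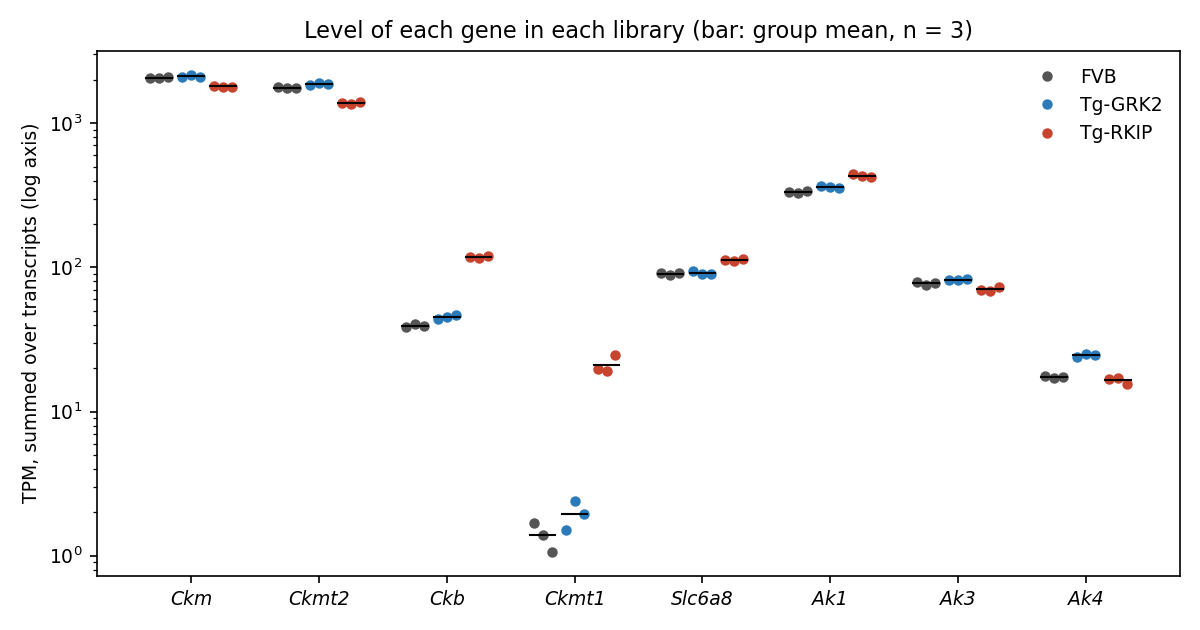
TPM of the 8 genes in each of the 9 libraries on a log axis, with grey points for FVB, blue for Tg-GRK2 and red for Tg-RKIP, and a bar at each group mean. Ckb and Ckmt1 sit well above both other groups in all 3 Tg-RKIP libraries, Ckm and Ckmt2 sit below them, and Ak4 is highest in Tg-GRK2.

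All 8 genes passed the threshold of 0.05 for the adjusted p in Tg-RKIP against FVB, with Ckb and Ckmt1 higher and the other 6 lower. The test was the quasi-likelihood F test of edgeR, with p adjusted after Benjamini-Hochberg over every gene tested. Of all 15504 genes 73.9% passed, 36.8% higher and 37.1% lower, so that most genes of this comparison were called. In counts scaled by TMM none of the 8 overlapped between Tg-RKIP and FVB, as held for 75.7% of all genes. The median log2 fold change of the 8 was -0.34, beside 0.01 over all genes. Of the 8, 2 rose with a log2 fold change of at least 1, as 10.2% of all genes did. With scaling to library size alone 4 of the 8 were higher and 4 lower, and of all genes 9710 were higher and 2649 lower in place of 5709 and 5751.

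Ckm (ENSMUSG00000030399, chromosome 7, 19138701 to 19156766 on GRCm39 as deposited) encodes the cytosolic muscle isozyme at the myofibrils. Its level was 1818, 1789 and 1792 TPM in the Tg-RKIP libraries, 2087, 2170 and 2094 in Tg-GRK2, and 2061, 2072 and 2075 in FVB. All 3 Tg-RKIP libraries lay below all others, and the Tg-GRK2 libraries lay just above FVB in TPM. The log2 fold change of counts against FVB was -0.57 (SE 0.0163, adjusted p = 2.94e-18, edgeR) in Tg-RKIP, and with library size only it was -0.19. In Tg-GRK2 the counts gave -0.03 (SE 0.0163, adjusted p = 0.214, edgeR), and the TPM gave 0.03 with limma.

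Ckmt2 (ENSMUSG00000021622, chromosome 13, 92001506 to 92025004, minus strand) encodes the sarcomeric isozyme of the mitochondrial intermembrane space. It stood at 1379, 1359 and 1391 TPM in Tg-RKIP, 1832, 1909 and 1856 in Tg-GRK2, and 1771, 1765 and 1762 in FVB. The 3 groups did not overlap. The log2 fold change against FVB was -0.78 (SE 0.0160, adjusted p = 8.39e-21, edgeR) in Tg-RKIP and 0.03 (SE 0.0159, adjusted p = 0.209, edgeR) in Tg-GRK2. Ckm and Ckmt2 ranked 42 and 49 among all gene names by TPM in FVB and 56 and 79 in Tg-RKIP.

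Ckb (ENSMUSG00000001270, chromosome 12, 111635795 to 111638772, minus strand) encodes the brain-type cytosolic isozyme, which is abundant in the embryonic heart, in smooth muscle and in neurons. It stood at 119, 117 and 119 TPM in Tg-RKIP, 43.7, 45.1 and 46.4 in Tg-GRK2, and 38.5, 40.5 and 39.3 in FVB. Every Tg-RKIP library held more than every library of the other groups, and the Tg-GRK2 libraries lay just above FVB. The log2 fold change against FVB was 1.16 (SE 0.0313, adjusted p = 9.38e-19, edgeR) in Tg-RKIP. In Tg-GRK2 it was 0.12 (SE 0.0349, adjusted p = 0.0109, edgeR), and without Tg-GRK2 replicate 3 or without FVB replicate 1 the call was lost, with adjusted p = 0.0678 and 0.0570.

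Ckmt1 (ENSMUSG00000000308, chromosome 2, 121188195 to 121194218) encodes the ubiquitous mitochondrial isozyme, the counterpart of Ckb outside striated muscle. It had 465, 603 and 470 reads in Tg-RKIP, 33, 59 and 61 in Tg-GRK2, and 44, 44 and 29 in FVB. Its levels of 19.8, 19.0 and 24.5 TPM in Tg-RKIP lay far above the 1.06 to 1.69 TPM of FVB, while the Tg-GRK2 libraries, at 1.51 to 2.41 TPM, overlapped FVB. The log2 fold change against FVB was 3.34 (SE 0.129, adjusted p = 6.13e-16, edgeR) in Tg-RKIP and 0.29 (SE 0.198, adjusted p = 0.326, edgeR) in Tg-GRK2. Without Tg-GRK2 replicate 1, the library with the high Rn18s share, the latter value was 0.50 with adjusted p = 0.0492 from edgeR. Even in Tg-RKIP the level of Ckmt1 stayed low beside its sarcomeric counterpart, at 1.51% ± 0.195 of the mitochondrial creatine kinase TPM against 0.0784% ± 0.0175 in FVB.

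**Figure D2:**
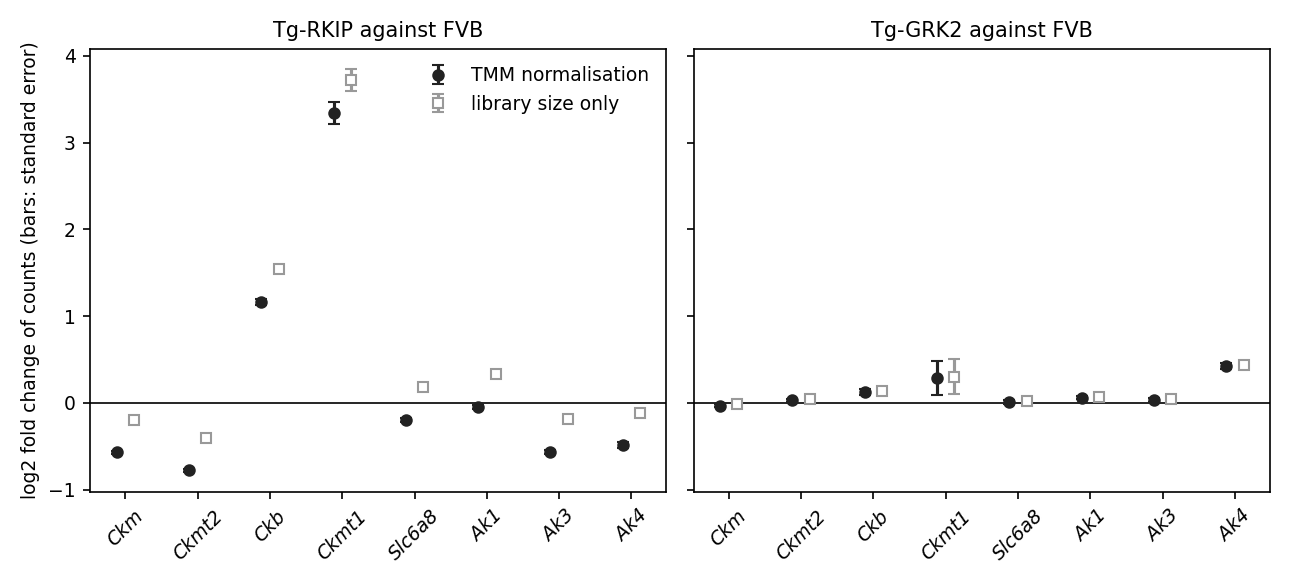
Log2 fold change of counts against FVB for the 8 genes in Tg-RKIP (left) and Tg-GRK2 (right), after TMM normalisation (filled circles) and with library size only (open squares), with standard errors. In Tg-RKIP Ckb and Ckmt1 are above 0 and Ckm, Ckmt2, Ak3 and Ak4 below 0 under both scalings, whereas Slc6a8 and Ak1 change side, from -0.20 to 0.18 and from -0.05 to 0.33.

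Ratios within a library do not depend on how libraries are scaled to each other. Ratios of TPM do depend on how reads were divided between transcripts. A Ckm form of 671 bases took 32.4% of the Ckm TPM in FVB and 25.6% in Tg-RKIP. Ckb made up 6.13%, 6.12% and 6.24% of the cytosolic creatine kinase TPM (Ckm plus Ckb) in Tg-RKIP, 2.05%, 2.03% and 2.17% in Tg-GRK2, and 1.83%, 1.92% and 1.86% in FVB. The groups did not overlap, and the differences from FVB were 4.30 percentage points in Tg-RKIP and 0.215 in Tg-GRK2 (exact two-sided permutation test, p = 0.1 for each, the smallest that 3 against 3 libraries allow). The mean log2 ratio in Tg-RKIP minus that in FVB was 1.79 for Ckb to Ckm, 4.30 for Ckmt1 to Ckmt2 and -0.16 for Ckmt2 to Ckm. Each was without overlap (exact permutation p = 0.1, adjusted p = 0.15 over 6 ratios and both comparisons).

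The 4 creatine kinases summed to 3316 ± 27.9 TPM in Tg-RKIP, 4030 ± 85.7 in Tg-GRK2 and 3876 ± 3.40 in FVB. Mitochondrial isozymes took 42.1% ± 0.341 of that sum in Tg-RKIP, 46.3% ± 0.110 in Tg-GRK2 and 45.6% ± 0.156 in FVB. Ckm and Ckmt2 made up nearly all of the sum in every library, and no library of Tg-RKIP reached the sum of any other library.

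**Figure D3:**
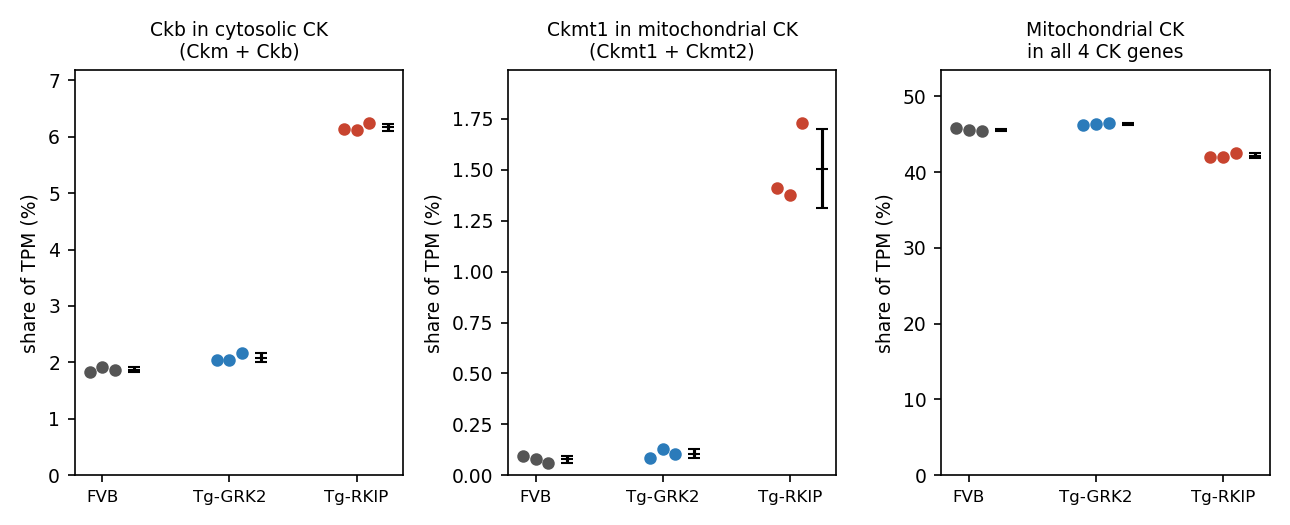
Share of TPM, in percent and from 0, of Ckb in the cytosolic pair, of Ckmt1 in the mitochondrial pair, and of both mitochondrial genes in all 4 creatine kinase genes, with 1 point a library and mean ± SD beside the points (n = 3). Ckb stands at 1.87% in FVB and 6.17% in Tg-RKIP, and the mitochondrial share at 45.6% and 42.1%.

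Markers of heart muscle cells and of other cells moved in the same comparison. Of all genes 36.8% were higher and 37.1% lower after TMM, and with library size only 9710 were higher and 2649 lower. All 7 cardiomyocyte markers, among them Myh6, Tnnt2 and Ryr2, were lower in Tg-RKIP after TMM, with a median log2 fold change of -0.83. They summed to 35895 to 36568 TPM against 40604 to 40885 in FVB. With library size only 5 were lower and 2 higher, and Tnnt2 turned from -0.10 to 0.28. After TMM the log2 fold changes of Ckm and Ckmt2 were -0.57 and -0.78. Of the smooth muscle markers 4 of 5 were higher, summing to 766 to 784 TPM against 316 to 340.4, and of the neuron and glia markers 3 of 6 were higher, summing to 26.5 to 28.1 TPM against 5.96 to 6.72. All 5 fibroblast markers were higher, summing to 1913 to 1919 TPM against 800.3 to 833, and so were 4 of 5 macrophage, all 5 white adipocyte and all 3 tested brown adipocyte markers. None of the defining markers of these lists was at 0 in all libraries of a group. In bulk tissue fewer cells of a type and less RNA per cell cannot be told apart, and the part of these cells in the levels of Ckb and Ckmt1 was not tested.

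Slc6a8 (ENSMUSG00000019558, X chromosome, 72716756 to 72726108) encodes the transporter that brings creatine into muscle, which cannot make enough of it. Its level was 113, 111 and 114 TPM in Tg-RKIP, 94.0, 90.1 and 90.5 in Tg-GRK2, and 91.1, 88.0 and 91.1 in FVB. In TPM the Tg-RKIP libraries lay above the others, but in counts relative to the median gene they lay below, with a log2 fold change of -0.20 (SE 0.0215, adjusted p = 4.11e-08, edgeR) that turned to 0.18 with library size only and to 0.32 with limma on TPM. Relative to Ckm in the same library the log2 ratio was higher in Tg-RKIP than in FVB by 0.52 (exact permutation p = 0.1, adjusted p = 0.15). In Tg-GRK2 the fold change was 0.01 (SE 0.0216, adjusted p = 0.705, edgeR), and it was -0.0044 without replicate 1.

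The small change of the Slc6a8 sum covered opposite changes of its listed transcripts. ENSMUST00000114464, which starts at 72720452, inside the gene and downstream of the first exons of the longer forms, took 55.9%, 58.3% and 64.5% of the Slc6a8 reads in Tg-RKIP, 23.4%, 24.8% and 21.0% in Tg-GRK2, and 33.3%, 24.8% and 29.7% in FVB. It was the largest form in every Tg-RKIP library and in no other library. The longer ENSMUST00000033752 took 15.2% ± 1.41 in Tg-RKIP, 33.0% ± 0.883 in Tg-GRK2 and 24.8% ± 1.10 in FVB, and ENSMUST00000114465 took 25.02% ± 3.19, 43.3% ± 1.80 and 45.3% ± 3.35. For each of the 3 shares the Tg-RKIP and FVB libraries did not overlap (exact permutation p = 0.1). In a fit over 34991 single transcripts, of which 34.0% passed in Tg-RKIP against FVB, the log2 fold change was 0.86 (SE 0.115) for ENSMUST00000114464, -0.87 (SE 0.0647) for ENSMUST00000033752 and -1.02 (SE 0.0971) for ENSMUST00000114465, and all 3 passed in edgeR. In Tg-GRK2, where 3.42% of transcripts passed, ENSMUST00000033752 was higher by 0.43 (SE 0.0638, adjusted p = 0.0121, edgeR). How reads shared by these forms were divided is not given in the sources used here for these reads of 50 bases.

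**Figure D4:**
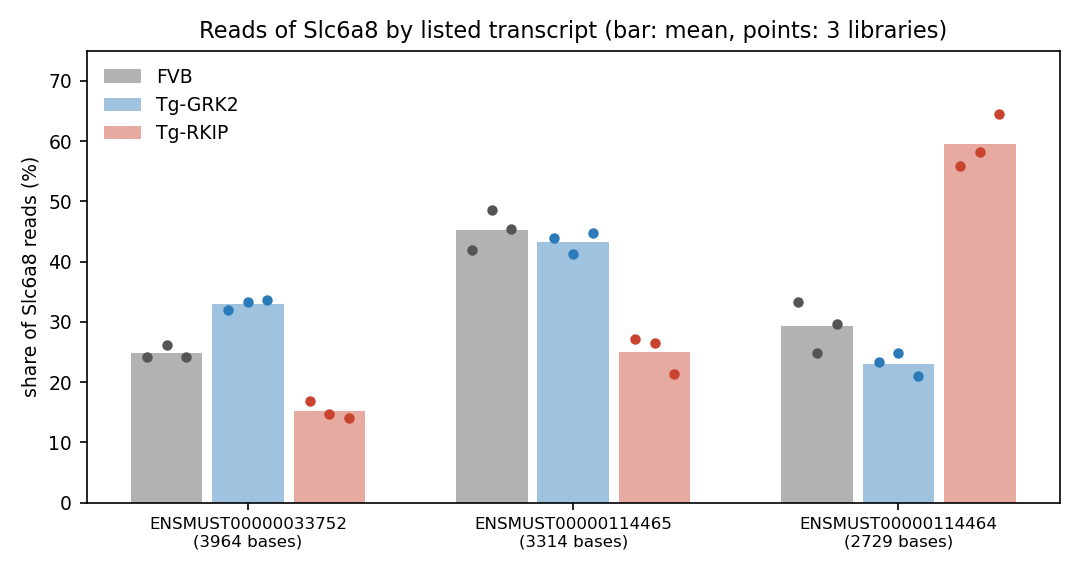
Share of Slc6a8 reads, in percent and from 0, on its 3 main listed transcripts, with bars at the group means and points for the 3 libraries of each group. The shortest form, which lacks the first exons of the longer ones, holds 59.5% of the reads in Tg-RKIP against 29.3% in FVB and 23.1% in Tg-GRK2.

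Ak1 (ENSMUSG00000026817, chromosome 2, 32511770 to 32525070) encodes the main cytosolic adenylate kinase of muscle and red cells. It stood at 442, 431 and 419.8 TPM in Tg-RKIP, 364, 359 and 357 in Tg-GRK2, and 333, 329.8 and 337 in FVB, with no overlap between groups. In counts the Tg-RKIP difference from FVB was near 0, with a log2 fold change of -0.05 (SE 0.0183, adjusted p = 0.0281, edgeR) that turned to 0.33 with library size only and 0.37 with limma on TPM, and the call was lost without Tg-RKIP replicate 2 or 3, Tg-GRK2 replicate 2 or FVB replicate 3, with adjusted p from 0.0507 to 0.110. In Tg-GRK2 it was 0.06 (SE 0.0183, adjusted p = 0.0178, edgeR), and adjusted p was 0.0887 without Tg-GRK2 replicate 1, 0.0548 without FVB replicate 1 and 0.0666 without FVB replicate 2. All 6 erythrocyte markers were higher in both transgenic groups, summing to 3477 to 3645 TPM in Tg-RKIP, 1666 to 1690 in Tg-GRK2 and 739 to 753 in FVB, and their part in the Ak1 level was not tested.

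Ak3 (ENSMUSG00000024782, chromosome 19, 28998233 to 29025361, minus strand) encodes the GTP-using enzyme of the mitochondrial matrix. It stood at 69.1, 68.8 and 73.3 TPM in Tg-RKIP, 81.5, 82.0 and 83.2 in Tg-GRK2, and 79.1, 75.8 and 77.7 in FVB. Tg-RKIP lay below FVB in every library. The log2 fold change was -0.56 (SE 0.0238, adjusted p = 2.93e-15, edgeR) in Tg-RKIP, or -0.19 with library size only, and 0.04 (SE 0.0233, adjusted p = 0.249, edgeR) in Tg-GRK2. Its exons overlap those of Cdc37l1 on the other strand, which had 2267 to 4331 reads, and whether the counting used strand is not given in the sources used here. The log2 ratio of Ak3 to Ak1 was lower in Tg-RKIP than in FVB, by -0.51 (exact permutation p = 0.1, adjusted p = 0.15).

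Ak4 (ENSMUSG00000028527, chromosome 4, 101276474 to 101324192) encodes a matrix member of the family that is known as a target of hypoxia signalling. It stood at 16.7, 17.2 and 15.6 TPM in Tg-RKIP, 24.1, 24.9 and 24.6 in Tg-GRK2, and 17.8, 17.0 and 17.3 in FVB. All Tg-GRK2 libraries lay above all others, while Tg-RKIP and FVB overlapped in TPM. The log2 fold change in Tg-GRK2 was 0.43 (SE 0.0350, adjusted p = 5.62e-09, edgeR), and 0.44 without replicate 1. With the most abundant transcript in place of the sum it was 0.23 (adjusted p = 0.530, edgeR), and the call was lost. That form, ENSMUST00000106945, took 48.7% of the Ak4 reads in Tg-GRK2 replicate 2, where ENSMUST00000102780 took 46.6%, and 83.1% to 93.4% in the other 8 libraries. In Tg-RKIP the log2 fold change of the sum was -0.49 (SE 0.0371, adjusted p = 1.11e-10, edgeR) in counts, -0.11 with library size only, and -0.07 with limma on TPM, where adjusted p = 0.144. The log2 ratio of Ak4 to Ak3 exceeded that of FVB by 0.41 in Tg-GRK2 (exact permutation p = 0.1, adjusted p = 0.15) and by 0.07 in Tg-RKIP (exact permutation p = 0.4, adjusted p = 0.436).

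Of the 8 genes, 3 passed in Tg-GRK2 against FVB, Ckb, Ak1 and Ak4, all higher, where 24.5% of all genes passed and 12.2% were higher. In counts scaled by TMM 6 of the 8 did not overlap, all but Ckmt1 and Slc6a8, and of all genes 37.1% did not. Without Tg-GRK2 replicate 1 there were again 3, with Ckmt1 in the place of Ak1, where 3193 of 15760 genes passed. Without FVB replicate 1 there was 1, Ak4, where 3284 of 15859 genes passed. In Tg-RKIP against Tg-GRK2 all 8 passed, where 74.5% of all genes did, 37.9% higher and 36.6% lower, with Ckb and Ckmt1 higher and the other 6 lower. With library size only Ak1 and Slc6a8 turned to 0.26 and 0.15, so that 4 of the 8 were higher and 4 lower, and of all genes 9608 were higher and 2847 lower in place of 5874 and 5677. After TMM none of the 8 overlapped there, as held for 76.4% of all genes. The log2 difference in that comparison was -0.91 for Ak4 (SE 0.0353, adjusted p = 5.79e-16, edgeR) and -0.81 for Ckmt2 (SE 0.0160, adjusted p = 4.13e-21, edgeR).

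By TPM the order in FVB and in Tg-GRK2 was Ckm, Ckmt2, Ak1, Slc6a8, Ak3, Ckb, Ak4 and Ckmt1. In Tg-RKIP Ckb stood above Slc6a8 and Ak3, and Ckmt1 above Ak4. No neighbours in the order overlapped in any group. The adenylate kinases summed to 518 ± 9.51 TPM in Tg-RKIP, 467 ± 2.75 in Tg-GRK2 and 428 ± 4.85 in FVB, and Ak1 took 83.2% ± 0.627, 77.1% ± 0.379 and 77.8% ± 0.317 of the sum.

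Both enzymes that make creatine were higher in Tg-RKIP, at low levels. Gatm, which makes guanidinoacetate, rose by a log2 fold change of 0.41 (SE 0.0661) in counts after TMM. Gamt, which methylates guanidinoacetate to creatine, rose by 0.93 (SE 0.1003) on that scale. Their TPM, which is not scaled by TMM, went from 6.91 to 12.1 and from 5.07 to 13.0. With limma on log2(TPM + 0.1) the changes were 0.79 and 1.35. In Tg-GRK2 Gamt rose by 0.55 (SE 0.108, adjusted p = 5.82e-04, edgeR) and Gatm gave 0.06 (adjusted p = 0.627, edgeR). Alpl, a phosphatase of the creatine cycle in thermogenic fat, rose by 0.26 in Tg-RKIP.

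Other adenylate kinases and nucleotide kinases moved in both directions in Tg-RKIP. Ak5, a neuronal form, had 27, 30 and 32 reads in Tg-RKIP and 2, 0 and 1 in FVB, at least 7.73-fold higher against a floor of 3 reads per library. Ak6, at -0.20, turned to 0.18 with library size only. Of 10 nucleotide kinases 5 rose and 4 fell, with a median of 0.09, and with library size only 7 rose and 1 fell. Of all genes 36.8% rose and 37.1% fell after TMM, and with library size only 9710 rose and 2649 fell. Nme1 and Nme7, nucleoside diphosphate kinase family members, rose by 0.62 and 0.71, while Nme4, the mitochondrial one, and Cmpk2, a mitochondrial pyrimidine nucleotide kinase, fell by 0.73 and 0.57 on the log2 scale.

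The genes that remove or sense AMP moved in both directions, 4 higher and 4 lower of 9 tested, with a median of -0.04, and with library size only 5 were higher and 2 lower. Prkaa2, the catalytic AMPK subunit that predominates in heart, fell by 1.28 on the log2 scale in counts after TMM. Its TPM went from 45.5 to 25.1, and limma on log2(TPM + 0.1) gave -0.86. The regulatory subunit genes Prkag2 and Prkag3 rose by 0.89 and 0.65. Of the AMP deaminases, Ampd3 fell by 1.00 on the log2 scale and Ampd2 rose by 0.97. In Tg-GRK2 Prkaa2 rose by 0.22 and 3 of 9 were higher and 2 lower, where 12.2% of all genes were higher and 12.2% lower.

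All 6 tested carriers and channels for ATP, ADP and phosphate were lower in Tg-RKIP, with a median of -0.43, and with library size only 3 were lower and 2 higher. Of all genes 37.1% were lower after TMM, and with library size only 9710 were higher and 2649 lower. Slc25a4, the ADP/ATP carrier of heart muscle that works beside Ckmt2, fell by 0.67 in log2 TMM counts (SE 0.0139, adjusted p = 9.87e-21, edgeR). Its TPM went from 2689.6 to 2261, and limma on log2(TPM + 0.1) gave -0.25. The phosphate carrier Slc25a3 fell by 0.58 in counts. In Tg-GRK2 5 of 6 were lower, Slc25a4 by 0.11 on the log2 scale, where 12.2% of all genes were lower. Of 8 regulators of energy genes 7 were lower in Tg-RKIP, with a median of -0.51, and with library size only 4 were lower and 2 higher. Ppargc1a and Ppargc1b, coactivators of mitochondrial genes, fell by 1.24 and 0.88, Esrrg, an estrogen-related receptor, by 0.65, and Mef2a, a muscle transcription factor, by 1.00, all on the log2 scale. In Tg-GRK2 3 of the 8 were higher and 1 lower.

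**Figure D5:**
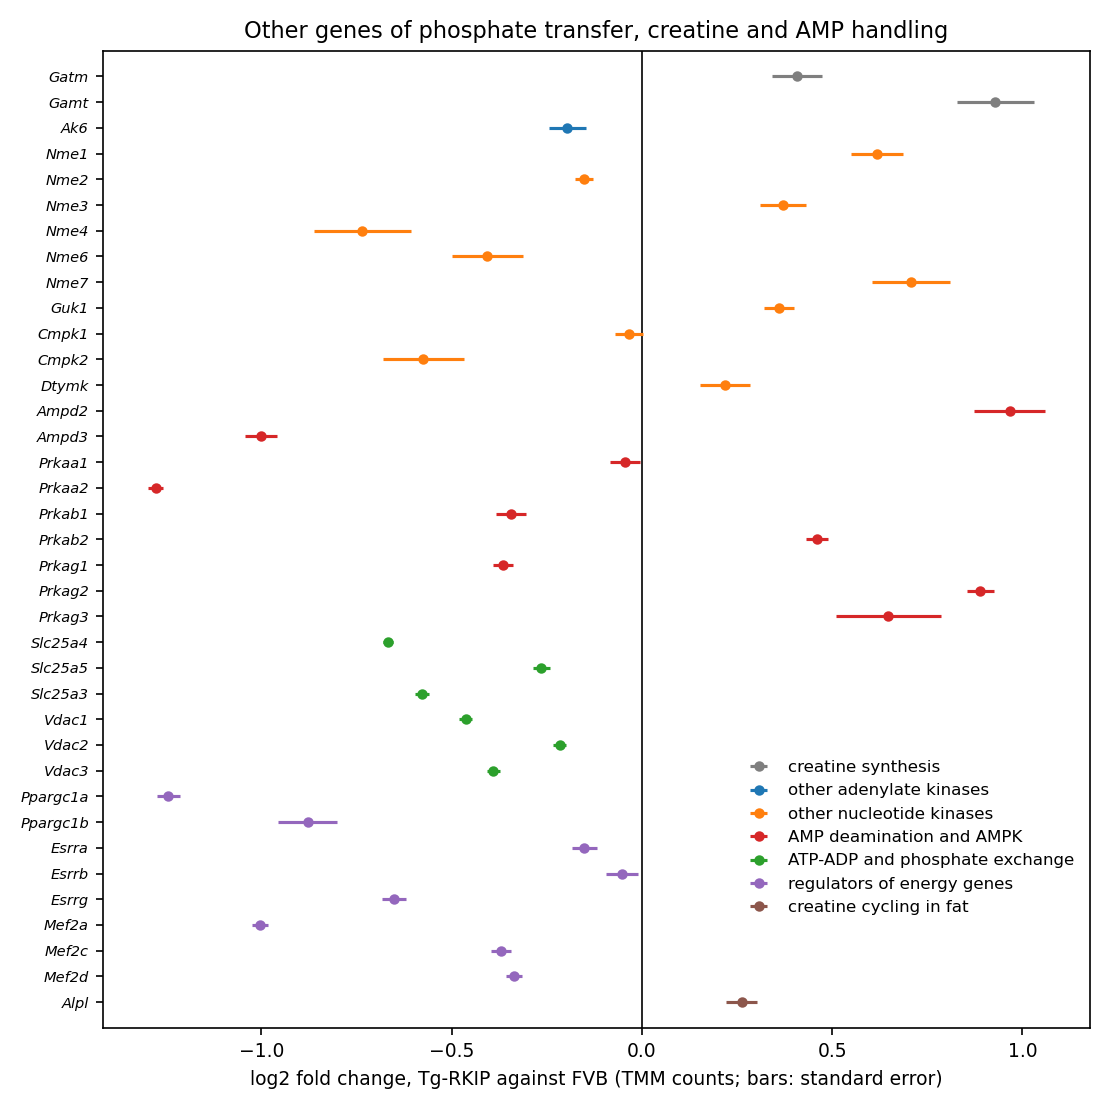
Log2 fold change of counts in Tg-RKIP against FVB for tested genes of 7 lists around the phosphate transfer system, after TMM normalisation, with standard errors, without Ak5, whose FVB libraries held at most 3 reads. The creatine synthesis genes lie above 0, the 6 carriers and channels and the 8 regulators lie below 0 on this scale, where with library size only 2 of the carriers and channels and 2 of the regulators passed as higher, and AMPK genes spread from -1.28 to 0.97 with the AMP deaminases.

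Among 4390 genes of at least 20 TPM, those whose log2 level over the 9 libraries was most like that of Ckm were Uqcrc1 (Pearson r = 0.9998), a subunit of respiratory complex III, Ndufv1 (0.9995), a subunit of complex I, and Mlycd (0.9995), malonyl-CoA decarboxylase. For Ckb they included Spcs3 (0.9992), a signal peptidase subunit, and Fstl1 (0.9989), a secreted glycoprotein. For Slc6a8 they were Txnrd2 (0.996), the mitochondrial thioredoxin reductase, Ints13 (0.993) and Gm15543 (0.993). These values describe 9 points that share 3 group levels and the same scaling.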

How the data were processed

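Heart RNA was sequenced in 9 libraries as single reads of 50 bases from random-primed cDNA. The authors deposited read counts, whole numbers without normalisation, and TPM values for 127558 transcripts. The build GRCm39 is named in the submitters' processing notes, and the aligner, the counting program, their use of strand and the division of shared reads are not given in the sources used here. Groups and replicates follow the labels.

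Counts and TPM were summed by gene name. Counts were tested with edgeR 4.0.16 in R 4.3.3 (TMM, filterByExpr, quasi-likelihood test, a mean per group over all 9 libraries), with Benjamini-Hochberg adjustment and a threshold of 0.05. Ratios were compared by exact permutation in scipy 1.17.1. Alternatives used DESeq2 1.42.0, limma 3.58.1 with pseudocounts of 0.1 and 1, other scalings and filters, and libraries left out. The edgeR fit was tested on simulated counts in which few genes changed. Most genes were called in Tg-RKIP, so that test does not cover the scaling there, and it did not cover the ratios. At 25458108 reads or more, 3 reads per library were taken as the floor. The p-values measure the spread between libraries, and whether it equals the spread between animals was not tested.

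The members and lists were chosen with earlier results of these data known. Genes of the lists were named if they passed with an absolute log2 fold change of at least 0.5 or share a reaction with a member. Some genes that this rule names are not reported here. The ciliated airway list had 0 of 3 tested markers higher and 1 lower in Tg-RKIP, the club cell list 3 of 3 higher (58.0 to 61.3 TPM against 0.233 to 0.442 in FVB and 146 to 155 in Tg-GRK2), the endothelial list 2 higher and 2 lower of 4, and the skeletal muscle list 2 higher and 1 lower of 4.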

Additional observations from a re-analysis of the deposited data

How the results depend on the processing

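With library size only, Tg-RKIP against FVB turned to 0.33 for Ak1 and 0.18 for Slc6a8 on the log2 scale, and Tg-RKIP against Tg-GRK2 to 0.26 and 0.15. Without mitochondrially encoded genes and without TMM, Ak1 gave 0.13 and 0.0657 in these comparisons. With limma on log2(TPM + 0.1) or log2(TPM + 1), Ak1 gave 0.37 in both against FVB and 0.26 in both against Tg-GRK2, Slc6a8 gave 0.32 in both and 0.30 in both, and Ckm in Tg-GRK2 against FVB gave 0.0326 in both. With the most abundant transcript in place of the gene sum, Slc6a8 gave 0.79, -0.32 and 1.11 in Tg-RKIP against FVB, Tg-GRK2 against FVB and Tg-RKIP against Tg-GRK2. With 1 library left out, Slc6a8 ranged from -0.00436, without Tg-GRK2 replicate 1, to 0.0335 in Tg-GRK2 against FVB. The log2 ratio of Slc6a8 to Ckm in Tg-GRK2 minus FVB, -0.01, turned to 0.0429 with read counts, and ranged from -0.0380 to 0.0203 with 1 library left out, above 0 without Tg-GRK2 replicate 2 or FVB replicate 1. The cause of these turns was not tested.

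With 1 library left out, 15655 to 15859 genes were tested. There 11012 to 11570 passed in Tg-RKIP against FVB, 3114 to 3773 in Tg-GRK2 against FVB and 11156 to 11658 in Tg-RKIP against Tg-GRK2. The number of members called was 7 to 8, 1 to 3 and 8 to 8 in the same order. For a fold change of at least 1.5 (glmTreat) it was 3, 0 and 4, where 3665, 155 and 3867 of all 15504 genes passed, and in Tg-GRK2 none of the 8 had an unadjusted p under 0.05. In Tg-GRK2 against FVB it was 1 without FVB replicate 1 (Ak4), where 3284 of 15859 genes passed. It was also 1 with the most abundant transcript (Ckb), where 1665 of 15177 genes passed. The Ckb share difference in Tg-RKIP was 5.51 percentage points with read counts and 5.37 with the most abundant transcript, which gave 0.303 in Tg-GRK2, and with 1 library left out it was 4.26 to 4.32 and 0.172 to 0.239. Over 6 ratios and both comparisons, those without overlap numbered 8 to 9 with 1 library left out. Leaving a library out cannot make separate groups overlap, so this count could only stay or rise. Ckb, Ckmt1 and Ckmt2 kept their direction and call in Tg-RKIP against FVB under all 21 alternatives. The replicate numbers did not pair the libraries (correlation of same-numbered deviations -0.0808 to 0.0873 over 9 pairs). With the number as a block the calls were 8, 3 and 8, where 11401, 3660 and 11491 of all 15504 genes passed.

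Depth limited Ckmt1 in FVB and Tg-GRK2, at 29 to 61 reads. A permutation of 3 against 3 libraries cannot pass 0.05.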
